A study of Mus musculus with 18 samples.

Results

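Blood vessels of the brain are lined by endothelial cells that seal the blood-brain barrier, and the vessel wall rests on a basement membrane, a thin sheet of type IV collagen, laminin and other matrix proteins. In 10 genes of this vessel wall, the type IV collagen genes Col4a1 and Col4a2 fell between postnatal day 7 (P7) and day 21 (P21) in the mouse cochlear nucleus, while the glucose transporter gene Slc2a1 and the matrix gene Sparc rose. The genes were taken by name and read from 17 of the 22690 probe sets on the array. Each probe set is a set of short oligonucleotides that together give 1 value. All 17 were found in the deposited table, and 16 of them, from all 10 genes, were bright enough to be tested. The pairing of probe set and gene is that of the member list, since no table used here pairs array identifiers with genes.

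The cochlear nucleus is the first brainstem station of hearing, and the series followed it across the weeks in which hearing begins. Tissue came from C57BL/6J mice, with no treatment or altered gene named in the labels, and the ages were 7 days (P7, 3 arrays), 14 days (P14, 2 arrays) and 21 days (P21, 3 arrays). RNA of 5 pups was pooled for each of the 8 oligonucleotide arrays. A pool averages over pups, and nothing in the labels says that the pools of an age came from separate litters, so p-values measure the spread between pools. The cDNA hybridisations of the series were not analysed here.

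In the growing brain, vessels sprout under vascular endothelial growth factor, which acts through the receptor Kdr and is bound by the receptor Flt1. The endothelium then takes on barrier traits, with tight junctions built on claudin 5 and glucose carried by the transporter that Slc2a1 encodes. Type IV collagen is laid down as a network around each new vessel by endothelial cells and pericytes, and Sparc is a calcium-binding and collagen-binding protein that acts on such matrix. Some of these genes are not restricted to vessels. Sparc is also made by astrocytes and microglia, and Slc2a1 also by astrocytes. The arrays measured whole tissue, so a change in the number of cells of a type and a change of RNA per cell cannot be told apart.

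Some array measures were steady and others were not. The median signal lay between 98.7 and 110.5, and the ratio of 3' to 5' signal, a measure of intact RNA, was 1.01 to 1.17 for beta-actin and 0.782 to 0.904 for Gapdh. Any pair of arrays of the same age correlated at r = 0.966 to 0.983 across probe sets, which are not independent replicates. The control for the 5' part of 18S ribosomal RNA was lowest on the P14 arrays, at 43.6 and 38.6, against 155.4 to 6137 on the P7 and P21 arrays, and its part in the changes below was not tested. Each array carried a high signal of 1 bacterial control RNA, at 897 on P21 replicate 1 and 4175 to 8938 on the other arrays, and the identity of that control differed between arrays. Controls that were not high on an array read at most 17.6 to 49.1, which gives a scale for dim probe sets.

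Between P7 and P21, 9 of the 16 tested probe sets passed the limma threshold (adjusted p under 0.05), from 5 of the 10 genes. Of all probe sets tested, 38.6% passed. The members that rose numbered 6 (17.1% of the table rose), and they were the 3 probe sets of Slc2a1, both of Sparc and 1 of Flt1. The members that fell numbered 3 (21.5% of the table fell), and all were type IV collagen. Probe sets of 1 gene are not independent of each other, so these are counts of measurements and not of independent genes. The median absolute log2 change was 0.80 over the tested members and 0.32 over all tested probe sets. From P7 to P14 these medians were 0.27 and 0.30, and from P14 to P21 0.43 and 0.19. The member medians are taken over probe sets, so genes with several, such as Slc2a1, Flt1, Sparc and Col4a1, weigh more. Of the genes with 1 tested probe set, Col4a2 changed by -1.03 from P7 to P21. Cldn5, Pecam1, Kdr, Cdh5 and Tek changed by -0.45 to 0.39.

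From P7 to P14, 6 of 16 members passed (29.6% in the table), with 5 higher (12.9% in the table) and 1 lower (16.7%). From P14 to P21, 1 of 16 passed (2.05% in the table), and it was lower (1.2% in the table). With single arrays left out, 0 to 2 members passed in that interval. Both intervals use the same P14 arrays, and both longer comparisons use the same P7 arrays. All 16 tested members had a mean signal above 50, the limit for testing, at each of the ages.

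**Figure D1:**
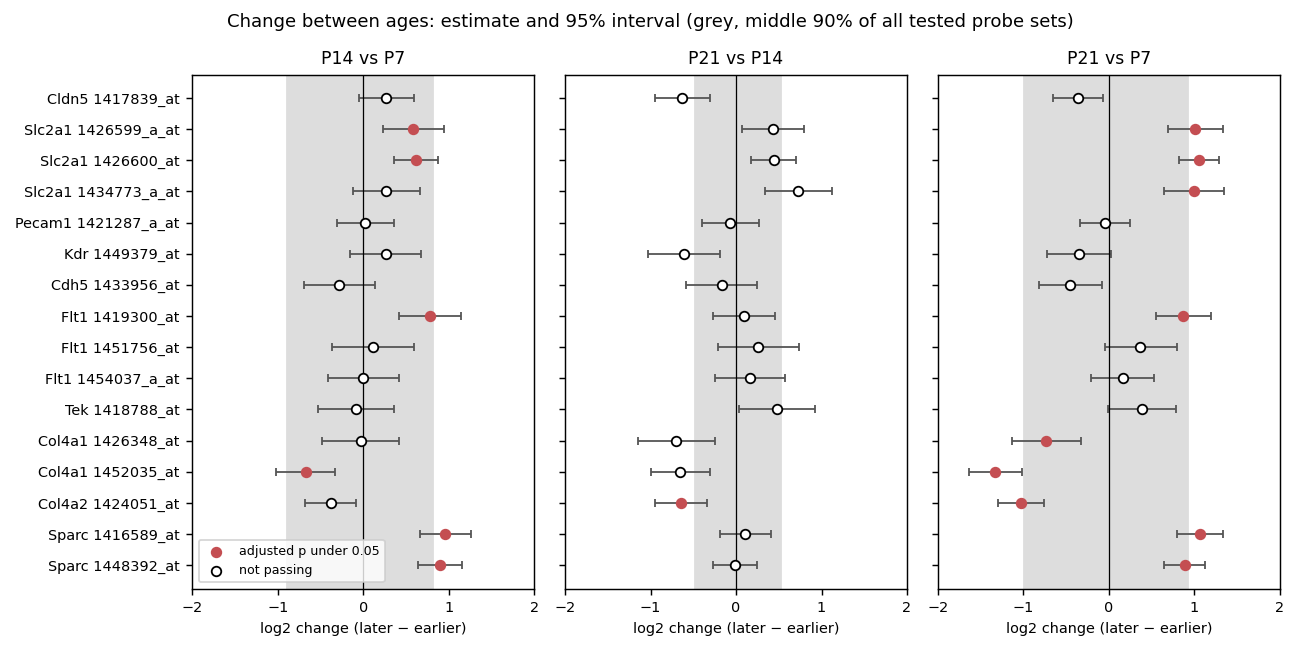
Log2 change of each of the 16 tested probe sets between ages (x axis, later minus earlier; bars, 95% intervals from limma; filled points, adjusted p under 0.05). The grey band holds the middle 90% of all tested probe sets. Slc2a1, Sparc and 1 Flt1 probe set lie to the right at P21 against P7, the 3 type IV collagen probe sets to the left, and Pecam1 lies at -0.04.

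Type IV collagen was the group that fell. Col4a1 (chr8:11198423-11312889) and Col4a2 (chr8:11312805-11449287, both GRCm38.p6) encode the alpha 1 and alpha 2 chains that join into the main triple helix of basement membranes. The genes stand head to head and are read in opposite directions. In RefSeq the start sites used here lie 21 bases apart, at 11312826 on the minus strand for Col4a1 and 11312805 on the plus strand for Col4a2. From these start sites each gene is read across the start of the other. The stretch from one start site to the other thus lies within both genes and is not a gap between them. It is shown because both neighbours fell, and it is read on the plus strand at chr8:11312805-11312826.

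Col4a2 start to Col4a1 start: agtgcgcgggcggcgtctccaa

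Of these 22 bases 72.7% are G or C. In RefSeq, 5.58% of genes with a listed start site have a start site of another gene on the other strand within 100 bases. This is a description of the place and says nothing of how the genes are controlled.

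The brighter Col4a1 probe set, 1452035_at, read 788, 947.5 and 892 at P7, 526.7 and 560 at P14, and 284.9, 326 and 422 at P21. The ages did not overlap at all, with P14 between the others. The log2 change from P7 to P21 was -1.33 (SE 0.14, limma adjusted p = 5.39e-05), a level 2.51-fold lower. Only 2.45% of tested probe sets had a change as low as this.

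The second Col4a1 probe set, 1426348_at, read 368, 562.6 and 530.9 at P7, 452.4 and 485 at P14, and 234.9, 355.9 and 271.4 at P21. All P21 arrays lay below all arrays of the earlier ages, and the P14 arrays lay within the P7 range. Its log2 change from P7 to P21 was -0.73 (SE 0.18, limma adjusted p = 0.00897). From P7 to P14 it was -0.03 (95% interval -0.48 to 0.42), while the first Col4a1 probe set had already fallen by 0.67 (SE 0.16, limma adjusted p = 0.00934). That early call was lost without P14 replicate 1 (log2 change -0.63, limma adjusted p = 0.0721). Whether the Col4a1 probe sets differed from each other was not tested.

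Col4a2 probe set 1424051_at read 428.4, 484.5 and 508.3 at P7, 406.1 and 318.4 at P14, and 214, 242.1 and 222.1 at P21. As with 1452035_at, the ages did not overlap. The log2 change from P7 to P21 was -1.03 (SE 0.12, limma adjusted p = 0.000115), a level 2.04-fold lower. From P7 to P14 the change was -0.38 (95% interval -0.68 to -0.08, limma adjusted p = 0.0582), and it passed without P7 replicate 1 (limma adjusted p = 0.0446) or P14 replicate 1 (limma adjusted p = 0.0474). Without P14 replicate 2 it was -0.21 (limma adjusted p = 0.415).

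Col4a2 was also the member that passed between P14 and P21, where it fell by 0.64 on the log2 scale (SE 0.14, limma adjusted p = 0.046). This call was lost in 13 of 18 alternatives. Among them were those without each single array other than P7 replicate 1, where the adjusted p from limma lay between 0.0685 and 0.258. The Col4a1 probe sets had changes of -0.66 and -0.70 in the same interval (limma adjusted p = 0.0595 and 0.0988). They passed without P21 replicate 3 for 1452035_at (limma adjusted p = 0.0417) and without P7 replicate 1 for 1426348_at (limma adjusted p = 0.049). Without P21 replicate 2, 1452035_at changed by -0.63 (limma adjusted p = 0.134). Without P21 replicate 3, 1426348_at changed by -0.67 (limma adjusted p = 0.184).

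Over the 8 arrays, log2 signals of Col4a2 and Col4a1 1452035_at correlated at r = 0.94, which placed Col4a2 at rank 389 of 15295 other probe sets. The second Col4a1 probe set correlated with 1452035_at at r = 0.80, at rank 2043 of the same 15295. These 8 points fall into the age groups, so the values describe shared change with age and carry no test.

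**Figure D2:**
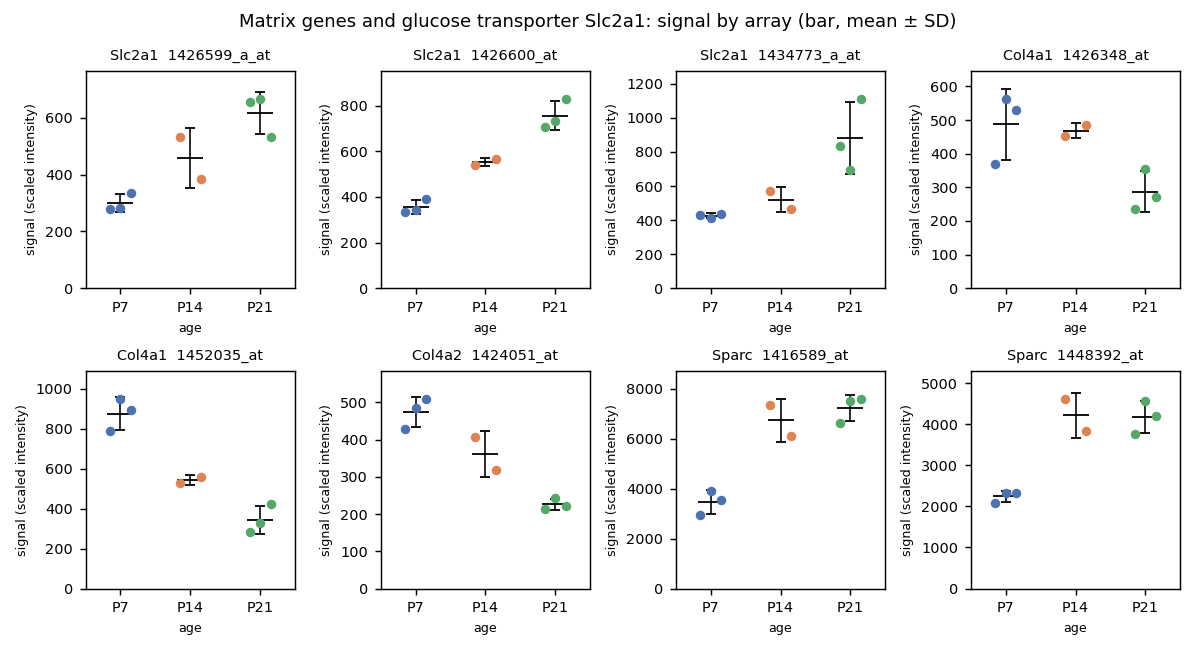
Signal (scaled intensity, y axis from 0) on each array at P7, P14 and P21 for the probe sets of Slc2a1, Col4a1, Col4a2 and Sparc; points are arrays and bars the mean ± SD. Col4a2 falls from a mean of 474 at P7 to 226 at P21, and Sparc 1416589_at stands at 3463 at P7, 6738 at P14 and 7241 at P21.

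Sparc (chr11:55394159-55420080, GRCm38.p6) moved the other way from the collagens that its protein binds. Probe set 1416589_at read 2933, 3899.4 and 3556.9 at P7, 7351.2 and 6124 at P14, and 6631.4, 7507.1 and 7584.6 at P21. All arrays of P14 and P21 lay above all P7 arrays, and the later ages overlapped. The log2 change was 0.96 (SE 0.13, limma adjusted p = 0.000658) by P14 and 1.07 (SE 0.12, limma adjusted p = 8.57e-05) by P21, a level 2.10-fold above P7.

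The other Sparc probe set, 1448392_at, read 2090.8, 2324.5 and 2329.2 at P7, 4605.9 and 3829 at P14, and 3760.8, 4557.9 and 4206.3 at P21. It gave the same picture, with log2 changes of 0.90 (SE 0.12) by P14 and 0.89 (SE 0.10) by P21. After P14 the changes were 0.11 (95% interval -0.19 to 0.41) and -0.01 (95% interval -0.27 to 0.25). The Sparc probe sets correlated at r = 0.99 over the 8 arrays. Their mean signals lay above those of 99.8% and 99% of the table.

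Sparc 1448392_at was the only member to pass the test of its change before P14 against its change after P14. The difference of the intervals was 0.91 (SE 0.21, limma adjusted p = 0.0295), and 8.01% of the table passed this contrast. For 1416589_at the difference was 0.85 (SE 0.24, limma adjusted p = 0.0575). Differences of like size that did not pass were 0.90 for Cldn5 (limma adjusted p = 0.0622) and 0.87 for Kdr (limma adjusted p = 0.141). The call for 1448392_at was lost when either P14 array was left out.

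Slc2a1 (chr4:119108745-119137330, GRCm38.p6) encodes the facilitative transporter that carries glucose across the barrier. The 250 bases before its start site, read on the plus strand at chr4:119108495-119108744, are shown beside those of Cldn5, the junction gene of the same barrier. Cldn5 did not pass in any comparison of the main limma fit, though its P21 level lay near the threshold against both earlier ages. The Cldn5 window is chr16:18776597-18776846 on the plus strand. Capitals mark textbook promoter motifs, searched on both strands. They are the GC box (GGGCGG), the CCAAT box (CCAAT), the TATA box (TATAAA) and the core bound by hypoxia-inducible factors (ACGTG).

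Slc2a1: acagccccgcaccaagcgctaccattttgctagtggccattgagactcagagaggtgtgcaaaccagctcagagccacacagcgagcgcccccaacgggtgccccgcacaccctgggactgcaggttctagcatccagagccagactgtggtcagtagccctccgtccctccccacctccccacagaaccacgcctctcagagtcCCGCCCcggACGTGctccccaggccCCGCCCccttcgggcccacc

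Cldn5: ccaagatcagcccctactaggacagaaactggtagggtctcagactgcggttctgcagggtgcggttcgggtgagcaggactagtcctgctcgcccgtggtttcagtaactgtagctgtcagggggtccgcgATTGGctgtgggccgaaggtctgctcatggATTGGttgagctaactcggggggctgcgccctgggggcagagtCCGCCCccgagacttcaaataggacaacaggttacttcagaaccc

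The Slc2a1 window holds 2 GC boxes, starting 45 and 20 bases before the start, and 1 ACGTG core, 36 bases before it. The Cldn5 window holds 1 GC box and 2 CCAAT boxes and no ACGTG core. None of the motif matches overlap each other here. Of all 32851 RefSeq windows of this length, 32.7% hold a GC box, 33.8% a CCAAT box, 12.4% a TATA box and 16.6% an ACGTG core. A match describes letters only, and whether it is a bound site or has a part in the changes was not tested. The promoter table held 8 of the 10 genes. Of these genes only Slc2a1 has an ACGTG core in its window. Sparc, which also rose, and Flt1, with 1 probe set that rose, have none in theirs. The windows of Kdr, Flt1, Tek and Col4a1 lie wholly or partly within the listed span of the gene itself. They are thus not all upstream sequence and are not like the other windows. The Sparc window holds none of the motifs searched.

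Slc2a1 probe set 1426600_at read 335.8, 343.6 and 393.2 at P7, 539.5 and 566.9 at P14, and 705.6, 734.2 and 829.2 at P21. The 3 ages did not overlap. The log2 change was 0.62 (SE 0.12, limma adjusted p = 0.00323) by P14 and 1.05 (SE 0.10, limma adjusted p = 3.61e-05) by P21, a level 2.08-fold above P7.

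Probe set 1426599_a_at read 278.1, 284.3 and 335.4 at P7, 533.1 and 384.9 at P14, and 654.1, 666.3 and 532.8 at P21. Its P14 arrays differed, and the higher of them just passed the lowest P21 array. The log2 change was 0.58 (SE 0.16, limma adjusted p = 0.0211) by P14 and 1.01 (SE 0.14, limma adjusted p = 0.000362) by P21. The earlier call rested on few arrays, and without P14 replicate 1 the change was 0.35 (limma adjusted p = 0.218). It was also lost without P7 replicate 1 or 2 (limma adjusted p = 0.051 and 0.058).

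Probe set 1434773_a_at read 429.8, 409.4 and 438 at P7, 570.3 and 466.6 at P14, and 833.2, 695 and 1110.7 at P21. The ages did not overlap, and P14 lay nearer to P7. The log2 change was 0.27 (95% interval -0.12 to 0.66) by P14 and 1.0 (SE 0.16, limma adjusted p = 0.000651) by P21. The Slc2a1 probe sets thus gave changes of 1.0 to 1.05 by P21, closer together than their standard errors. No Slc2a1 probe set passed between P14 and P21, where the changes were 0.43 to 0.73 (limma adjusted p = 0.0604 to 0.184). For 1426599_a_at the change of 0.43 was 0.66 without P14 replicate 1 and 0.20 without P14 replicate 2.

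Among the receptors of vascular growth factors, 1 of the Flt1 probe sets passed and Kdr and Tek did not. Flt1 (chr5:147561604-147726438, GRCm38.p6) encodes a receptor that binds vascular endothelial growth factor tightly and also exists as a soluble form that traps it. Probe set 1419300_at read 77.9, 84.1 and 69.6 at P7, 135.8 and 147 at P14, and 167.4, 128.5 and 161.4 at P21. All later arrays lay above all P7 arrays. The log2 change was 0.78 (SE 0.16, limma adjusted p = 0.00543) by P14 and 0.87 (SE 0.15, limma adjusted p = 0.000965) by P21. Without P14 replicate 2 the adjusted p at P14 was 0.0552 in limma.

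The other Flt1 probe sets did not pass. Probe set 1451756_at read 145.7, 118.3 and 135.4 at P7, 177.7 and 116.5 at P14, and 137.2, 183.9 and 213.5 at P21. The ages overlapped, and P21 stood 0.37 above P7 on the log2 scale (95% interval -0.05 to 0.80). Without P21 replicate 1, the lowest P21 array, the difference was 0.54 and passed (limma adjusted p = 0.0484). Without P21 replicate 3, the highest, it was 0.24 (limma adjusted p = 0.397). Probe set 1454037_a_at read between 64.3 and 96 on every array, with a change of 0.16 (95% interval -0.21 to 0.53). Which Flt1 transcripts each probe set reads was not found in the labels, and no test compared the probe sets with each other.

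Kdr (chr5:75932827-75979072, GRCm38.p6) encodes the main signalling receptor for the same growth factor. Probe set 1449379_at read 266.8, 249.9 and 256.7 at P7, 343.5 and 282.2 at P14, and 152.2, 258.3 and 203.2 at P21. P14 was the highest age, above every array of the others, and the P21 arrays spread widely. The log2 change from P7 to P21 was -0.35 (95% interval -0.72 to 0.03, limma adjusted p = 0.135), and without P21 replicate 2 it was -0.52 and passed (limma adjusted p = 0.0277). Without P21 replicate 1 it was -0.16 (limma adjusted p = 0.408). Between P14 and P21 it was -0.61 (95% interval -1.03 to -0.19, limma adjusted p = 0.123).

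Tek (chr4:94739086-94874976, GRCm38.p6) encodes the receptor for angiopoietins, which act on the stability of the vessel wall. Probe set 1418788_at read 142.9, 132.4 and 84.9 at P7, 107.3 and 112.6 at P14, and 156.2, 170.9 and 146.8 at P21. Every P21 array lay above every earlier array. The changes to P21 were 0.39 from P7 (95% interval -0.01 to 0.79, limma adjusted p = 0.113) and 0.48 from P14 (limma adjusted p = 0.229), and neither passed. Without P7 replicate 3, the lowest array, the change from P7 was 0.18 (limma adjusted p = 0.391).

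The junction and adhesion genes did not pass in any comparison of the main limma fit. Cldn5 (chr16:18776847-18778262, GRCm38.p6) encodes claudin 5, the main sealing protein of endothelial tight junctions. Its probe set read 554.7, 585.6 and 465.2 at P7, 578.7 and 718.5 at P14, and 369.1, 410.9 and 462.6 at P21. P21 arrays lay below all others, the closest being P7 replicate 3. The log2 change was 0.27 by P14 (95% interval -0.05 to 0.59) and -0.36 by P21 (95% interval -0.65 to -0.07, limma adjusted p = 0.0512). After P14 it was -0.63 (SE 0.15, limma adjusted p = 0.055). Both later values lie next to the threshold. With a stricter filter on dim probe sets both passed (limma adjusted p = 0.0459 against P7 and 0.049 against P14). The comparison of P21 with P7 passed without P7 replicate 3 (limma adjusted p = 0.0322) or P21 replicate 3 (limma adjusted p = 0.0405). Without P7 replicate 2 the change was -0.29 (limma adjusted p = 0.167), and without P21 replicate 1 it was -0.28 (limma adjusted p = 0.145).

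Cdh5 (chr8:104101613-104144504, GRCm38.p6) encodes VE-cadherin, which joins endothelial cells at adherens junctions. Probe set 1433956_at read 156.3, 138.7 and 107.2 at P7, 120 and 95.9 at P14, and 104, 85.2 and 93.5 at P21. P21 lay below P7 by a narrow gap, and the estimate was -0.45 (95% interval -0.82 to -0.08, limma adjusted p = 0.0574). It passed without P7 replicate 3 (log2 change -0.59, limma adjusted p = 0.0282), and with arrays blocked by their bacterial control it was -0.08 (limma adjusted p = 0.861). The second Cdh5 probe set, 1422047_at, read 30.1 to 41.7 on all arrays but P21 replicate 2, at 80.2. It was too dim to be tested, and all but that array read below 49.1, the highest reading of a control that was not high on its array.

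Pecam1 (chr11:106654213-106715281, GRCm38.p6) encodes an adhesion molecule found on endothelial cells generally. Probe set 1421287_a_at read 99.8, 105.7 and 111.3 at P7, 105.7 and 109.2 at P14, and 91.9, 110.2 and 104.9 at P21. The ages overlapped, and the log2 change from P7 to P21 was -0.04 (95% interval -0.34 to 0.25). The interval does not reach the changes estimated for Col4a1, Col4a2, Slc2a1 or Sparc. It does meet the 95% interval of Col4a1 1426348_at (-1.13 to -0.33), and no test compared Pecam1 with these genes.

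**Figure D3:**
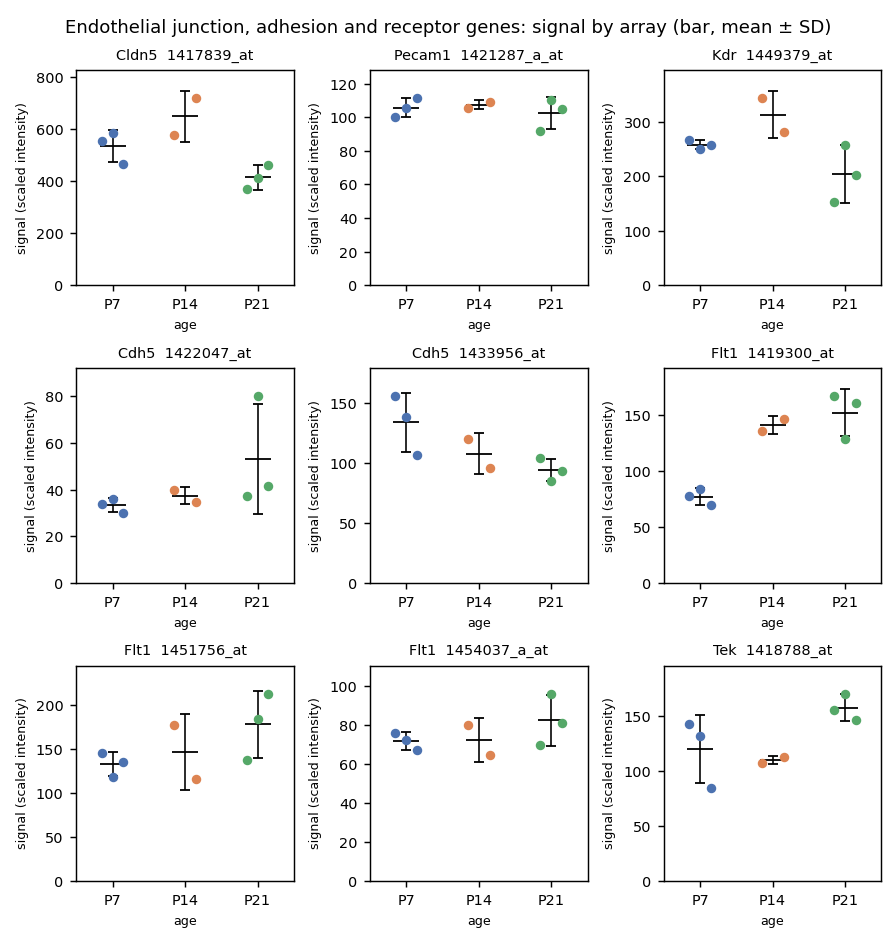
Signal (scaled intensity, y axis from 0) on each array at P7, P14 and P21 for the junction, adhesion and receptor probe sets; points are arrays and bars the mean ± SD. Pecam1 means are 106, 107 and 102, Cldn5 means 535, 649 and 414, and Flt1 1419300_at means 77.2, 141 and 152 at P7, P14 and P21. Cdh5 1422047_at was not tested.

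The log2 ratio of 2 genes on the same array depends little on how that array was scaled. Relative to Pecam1, the ratio changed between P7 and P21 by -1.29 for Col4a1 1452035_at, -0.98 for Col4a2, 1.10 for Slc2a1 1426600_at and 1.11 for Sparc 1416589_at. Relative to Cldn5 the same ratios changed by -0.97, -0.67, 1.41 and 1.43. For each of these ratios the P21 arrays all lay on one side of the P7 arrays. Between P14 and P21 the collagen ratios to Cldn5 changed by only -0.03 and -0.01, since Cldn5 and the collagens were lower together at P21, while against Pecam1 they changed by -0.59 and -0.58. The ratios were chosen after the values were seen and carry no test.

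**Figure D4:**
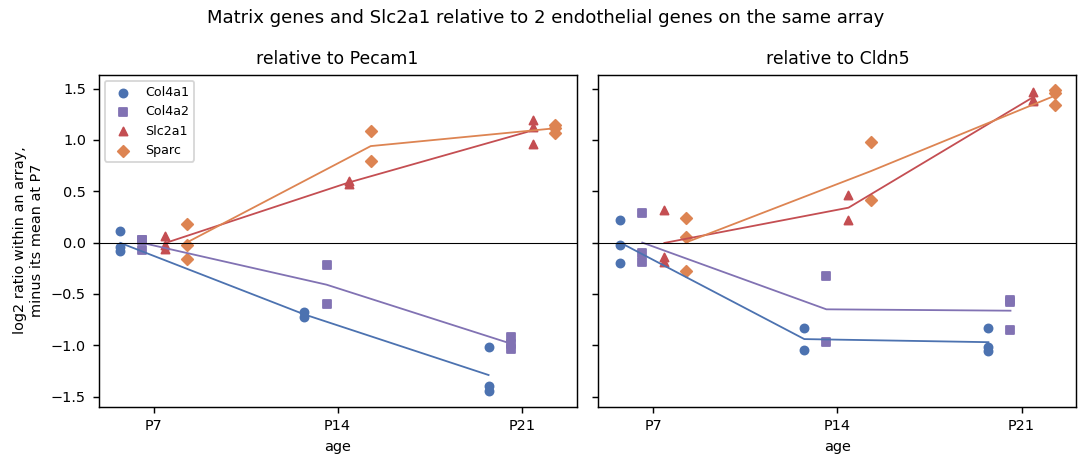
Log2 ratio of Col4a1, Col4a2, Slc2a1 and Sparc to Pecam1 (left) and to Cldn5 (right) on the same array, minus the mean ratio at P7 (y axis), by age (x axis); points are arrays and lines join the age means. Against Pecam1 the collagens reach -1.29 and -0.98 at P21, and Slc2a1 and Sparc 1.10 and 1.11.

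The members that passed between P7 and P21 differed in how much of the change was present at P14. That share of the log2 change was 0.90 and 1.01 for Sparc and 0.894 for Flt1 1419300_at. It was 0.576, 0.583 and 0.271 for the Slc2a1 probe sets, 0.506 and 0.0438 for Col4a1 and 0.373 for Col4a2. Over the 5907 probe sets of the table that passed, the median share was 0.784. With each P14 array taken alone, Sparc gave 0.777 to 1.16, Flt1 0.834 and 0.954, Slc2a1 0.129 to 0.801 and the collagens -0.0228 to 0.539. The shares of single probe sets were thus loosely fixed, and the test of unequal intervals passed only for Sparc 1448392_at among the members.

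The bacterial control that was high on an array was lys on 1 array of each age. Between the P7 and P21 arrays with that control, the log2 changes were -1.60 and -1.14 for Col4a1, -1.20 for Col4a2, 0.82 to 0.94 for Slc2a1, 0.90 and 0.69 for Sparc and 1.13 for Flt1 1419300_at. Each had the direction found over all arrays. A limma fit with the control as a block called all 9 members between P7 and P21, but there P21 rests on replicate 1, since the other P21 arrays each have a control of their own. That fit has 2 residual degrees of freedom, from the arrays of the earlier ages, so the lone P21 array is assumed to vary like them. Marker genes of pericytes, astrocytes, microglia, meninges and blood could not be matched to probe sets, and their part in these changes was not tested.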

How the data were processed

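The deposited oligonucleotide table holds 1 intensity per probe set and array, made by the authors with GCOS, the array maker's software, per the submitters' processing notes, with no version given. Each of the 8 arrays had a 2%-trimmed mean of 250.1, so the deposited intensities already shared a common level and were kept. The 64 control probe sets and those dimmer than 50 on average stayed out of the test, and 15296 of 22690 remained. Tests used log2(signal + 12.5), so fold changes are on that scale and understate changes of dim probe sets. One limma model (limma 3.58.1, R 4.3.3, eBayes with a trend) held all 8 arrays, with two-sided tests and Benjamini-Hochberg adjustment over all probe sets tested at 0.05. The fit was tested on simulated data. Precision is limited by how many arrays there are.

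The members and lists were chosen with earlier results of these data known. All 17 members are described. None of the probe set identifiers matched the gene table (0 of 22690), so 16 further gene lists, and the naming of the 5 probe sets most like a member, were not run. Sequences are RefSeq's (GRCm38.p6), and a window ends before the start site. Alternatives covered the pseudocount, filter, normalization, variance prior, arrays fitted, blocks and each array left out.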

Additional observations from a re-analysis of the deposited data

Results flagged for a closer look

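The change of Sparc 1448392_at from P7 to P14 exceeded its change from P14 to P21 by 0.91 on the log2 scale (limma adjusted p = 0.0295, over all 15296 probe sets tested). The difference between the intervals was itself tested, and this was the member that passed. No age has over 3 arrays, so no test for a single deviating array was made.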

How the results depend on the processing

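The 9 member calls between P7 and P21 passed in all 18 alternatives run, and 9 to 11 members passed in each. In those alternatives the log2 change ran from -1.62 to -1.21 for Col4a1 1452035_at and from -1.09 to -0.92 for Col4a2. From P7 to P14, 5 or 6 members passed in each. Between P14 and P21 the number passing in limma was 0 (9 unadjusted) with no filter, with no trend or with only the ages compared, 0 (8 unadjusted) with quantile normalization, 0 (6 unadjusted) when arrays were blocked by their poly-A control, and 2 with a filter at 0.4 of the trimmed mean. With 1 array left out it was 0 to 2, where a lone P14 array is assumed to vary like the other ages. For the difference between intervals it was 0 (5 unadjusted) with no filter, with no trend or with arrays blocked by their poly-A control, and 0 to 1 with 1 array left out. The cause was not tested.

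Over 32 changes of members that had not passed, 14 of 573 alternative fits gave a pass. In the fits run, signs turned only for changes that had not passed. With quantile normalization, Pecam1 from P7 to P21 was 0.02, Tek from P7 to P14 0.05 and Sparc 1448392_at from P14 to P21 0.07. Blocked by poly-A control, Cdh5 1433956_at from P14 to P21 was 0.14. With 1 array left out, Pecam1 ran from -0.09 to 0.02 (P7 to P21), -0.01 to 0.06 (P7 to P14) and -0.12 to 0.00 (P14 to P21). From P7 to P14, Flt1 1451756_at ran from -0.17 to 0.39, Flt1 1454037_a_at from -0.13 to 0.14, Tek from -0.29 to 0.04 and Col4a1 1426348_at from -0.22 to 0.08. After P14, Flt1 1451756_at ran from -0.02 to 0.54, and the Sparc probe sets from -0.02 to 0.24 and from -0.15 to 0.12.

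With the replicate number as a block, 10, 6 and 1 members passed between P7 and P21, P7 and P14, and P14 and P21. In that fit Col4a1 1452035_at passed between P14 and P21 (-0.74, limma adjusted p = 0.0332) and Col4a2 did not (adjusted p = 0.0618), Cdh5 1433956_at passed between P7 and P21 (adjusted p = 0.0457), and Flt1 1454037_a_at from P7 to P14 was -0.02. Of 7 same-numbered array pairs 3 had deviations correlated over 0.1, and of 14 other pairs between ages 2 did. Deviations of arrays of the same age offset each other, so these counts cannot tell whether the numbers pair arrays. The numbers were not known to pair the arrays, so blocking by them was kept as an alternative.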

Other observations

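The control probe set for the 3' part of the transferrin receptor, the iron importer of barrier endothelium and of other dividing or iron-using cells, was not tested. It read 74.8, 91.1 and 153.5 at P7, 348.8 and 195.8 at P14, and 158.6, 176.4 and 238.7 at P21. For the middle part the control read 18.3, 27.1 and 30.8 at P7, 72.1 and 53.2 at P14, and 27.3, 38.7 and 47.9 at P21. For the 5' part it read 24.3, 23.5 and 36.6 at P7, 66.7 and 55 at P14, and 38.4, 53.3 and 82.3 at P21. The P14 arrays lay above all P7 arrays for each part. The P21 arrays lay above P7 by a narrow gap for the 3' and 5' parts and overlapped P7 for the middle part. For the 5' part P21 replicate 3 also lay above both P14 arrays. The middle-part readings at P7 and P21 lay under 49.1, the highest reading of a control that was not high on its array. So did the 5' readings at P7 and on P21 replicate 1.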
